A study of Mus musculus with 4 samples.

Results

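Places where the transcription factor NKX2.2 had 3 or more binding summits close together were examined in alphaTC6 cells. A summit marks where the enrichment within a called peak is highest. The summits on chromosomes 1 to 19 and X were sorted by position, neighbours at most 12500 bases apart were joined, and every summit in a run of 3 or more was kept. This gave 163 runs with 554 of the 7380 placed summits, or 7.51%. Another 1270 summits lay in 635 pairs and 5556 stood alone. The members were chosen by the called positions alone, so the spacing, number and span of the summits are given as a description without a test.

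The series holds 2 NKX2.2 ChIP and 2 input samples of wild-type alphaTC6, a mouse line labelled as alpha cells, with no treatment named. Lines of the alphaTC family were derived from a mouse tumour driven by a viral T antigen under glucagon gene control, so all samples come from the same transformed line. The authors deposited 1 list of summits for all samples, with a score per peak. The list has no header, and the score was taken as the −log10 of the q-value against input. The list has no value per library, so read depth is unknown, no value below has a replicate error, and no marker level could be used to check the cell type.

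NKX2.2 is a homeodomain protein that is needed for the formation of several islet endocrine cell types and can repress or activate its targets, in part through Groucho corepressors. Proteins of its subfamily bind DNA around an AAGTG core. Transcription factors often bind several neighbouring elements of a gene, such as a promoter and its enhancers, and dense groups of binding sites are common around genes that define a cell type. The joining distance used here is also a usual one for stitching enhancers into super-enhancers.

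Sequence could be read where a summit fell into a RefSeq promoter window (GRCm38.p6), which runs from 250 bases before a gene start to 50 after it. This was so for 64 of the 535 run summits on chromosomes with windows, in 47 runs. The share was 11.96%, against 14.25% of paired, 20.48% of single and 18.76% of all summits on these chromosomes. The letters thus describe a minority of run summits, and a smaller share than among paired or single summits. Letters are shown for the highest-scoring promoter summits (Taok2, a kinase gene, and the lncRNA gene 4930568G15Rik), for a lncRNA start in the run over Nkx2-2 itself (6430503K07Rik), for Klf9, and for a run over histone genes in which each of the 3 summits fell into a window (H4c8, H2ac10 and H3c8). Each stretch lies around the summit and reaches no further than the gene start, which at H4c8 leaves the summit 9 bases beyond its end. Capitals mark matches on either strand to TNAAGTG, the NKX2 letters, and to GGGNGNGG, letters shared by the KLF and SP families, so that a match on the other strand appears as the reverse complement. The stretches are, in the order printed and on the strand of the gene, chr7:126884967-126885063 (minus), chr1:165091985-165092135 (minus), chr2:147187278-147187424 (plus), chr19:23140995-23141145 (plus), chr13:23530978-23531044 (plus), chr13:23533754-23533875 (plus) and chr13:23535224-23535374 (plus).
Taok2: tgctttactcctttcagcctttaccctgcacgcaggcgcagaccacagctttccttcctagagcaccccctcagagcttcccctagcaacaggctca
4930568G15Rik: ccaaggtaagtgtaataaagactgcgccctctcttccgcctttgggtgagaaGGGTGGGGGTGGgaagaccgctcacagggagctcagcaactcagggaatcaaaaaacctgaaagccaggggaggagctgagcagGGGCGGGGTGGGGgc
6430503K07Rik: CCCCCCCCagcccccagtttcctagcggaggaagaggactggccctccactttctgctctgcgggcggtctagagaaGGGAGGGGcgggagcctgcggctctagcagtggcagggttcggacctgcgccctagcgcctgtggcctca
Klf9: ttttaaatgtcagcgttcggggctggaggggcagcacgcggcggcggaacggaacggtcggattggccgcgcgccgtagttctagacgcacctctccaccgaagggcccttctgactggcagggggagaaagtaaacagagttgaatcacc
H4c8: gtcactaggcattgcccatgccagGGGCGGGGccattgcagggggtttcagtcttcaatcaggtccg
H2ac10: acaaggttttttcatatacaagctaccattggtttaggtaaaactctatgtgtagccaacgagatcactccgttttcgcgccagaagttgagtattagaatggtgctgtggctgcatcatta
H3c8: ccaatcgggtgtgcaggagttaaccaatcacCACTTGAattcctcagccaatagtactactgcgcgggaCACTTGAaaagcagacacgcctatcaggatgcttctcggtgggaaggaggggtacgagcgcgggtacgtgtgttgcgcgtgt
The H3c8 stretch held the full NKX2 letters TNAAGTG in 2 places, and the other stretches held no full match. The core AAGTG alone, which was not marked, also occurred at 4930568G15Rik. Its reverse complement CACTT occurred at 6430503K07Rik. The KLF and SP letters occurred in 4 overlapping or separate places at 4930568G15Rik, 2 at 6430503K07Rik and 1 at H4c8.

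Over whole windows, the NKX2 letters were found in 7 of the 78 windows with a run summit, or 8.97%, in 9.06% of the 1545 windows with a summit outside runs only, and in 11.5% of all 32817 windows. Windows are not all distinct units, since windows of neighbouring or alternative starts overlap and the 78 come from 64 summits. The Pcdh10 and 2610316D01Rik windows, both among the 7, share a summit. The KLF and SP letters were found in 69.2%, 70.3% and 49.5% of the same 3 sets. The FOXA letters TGTTTAC were in 3.85%, 2.59% and 3.65%, and the E-box letters CANNTG in 59.0%, 61.4% and 72.3%. Windows with a run summit had a median GC content of 60.7% and those with other summits 61.7%, against 52.7% in all windows. For each of these letters, windows in runs lay within 3 percentage points of windows with other summits. A match is a description of letters and not of a binding site.

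Most runs were short. Of the 163 runs, 123 had 3 summits, 25 had 4, 8 had 5, 5 had 6, and 1 each had 7 and 8. The span from first to last summit ranged from 1.25 to 37.5 kb with a median of 11.3 kb, and the median was 9.52 kb for runs of 3 and 16.6 kb for runs of 4. All runs together spanned 1997 kb. The gap between neighbours within a run had a median of 4.24 kb and a smallest value of 0.521 kb. At the limit itself, the widest joined gaps were 12.412, 12.401 and 12.384 kb, and the narrowest gaps that would have extended or made a run were 12.765, 12.813 and 12.833 kb.

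Runs were found on 17 of the 20 chromosomes. Chromosomes 1, 6 and 8 had 16 each, and chromosomes 14, 16 and X had 0. Chromosome 16 had 206 summits in all, while chromosomes 14 and X had 76 and 62. The share of summits in runs went from 3.79% on chromosome 3 to 12.2% on chromosome 8 among the chromosomes with runs.

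Summits in runs scored about as high as others. Their median score was 13.0, with quartiles of 7.65 and 25.1, against 14.3 for summits in pairs, 13.7 for single summits and 13.7 for all. Scores of 100 or more belonged to 29 run summits, 5.23%, against 5.08% of all summits. These 29 lay in 29 different runs, so no run held more than 1 of them. The summed score per run had a median of 57.2 and ranged from 15.9 to 890. The single highest summit held a median of 52.4% of the summed score and over 50% of it in 92 runs. In runs of 3 the highest summit came first in 42, in the middle in 41 and last in 40, in order of genome position. In 37 runs every summit scored at least 10, and in 8 runs none did. Scores under 10 belonged to 38.4% of run summits, against 33.5% of paired, 35.1% of single and 35.1% of all summits.

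**Figure D1:**
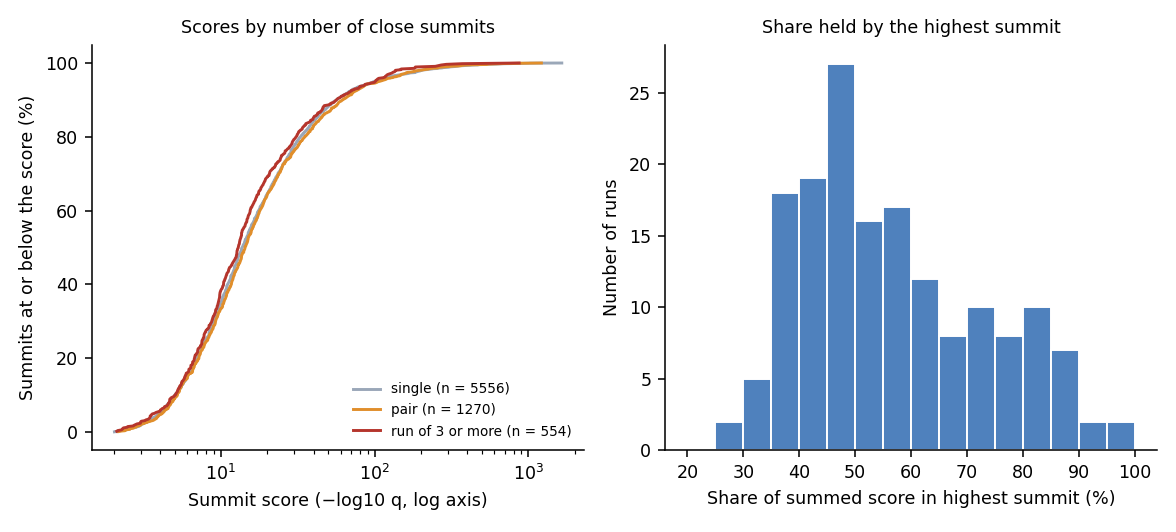
Left, share of summits at or below a score (−log10 q, log axis) for single summits, pairs and runs of 3 or more; right, number of runs by the share of the summed score that the highest summit holds. The 3 curves lie close together, with medians of 13.7, 14.3 and 13.0, and the highest summit holds a median of 52.4%.

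**Figure D2:**
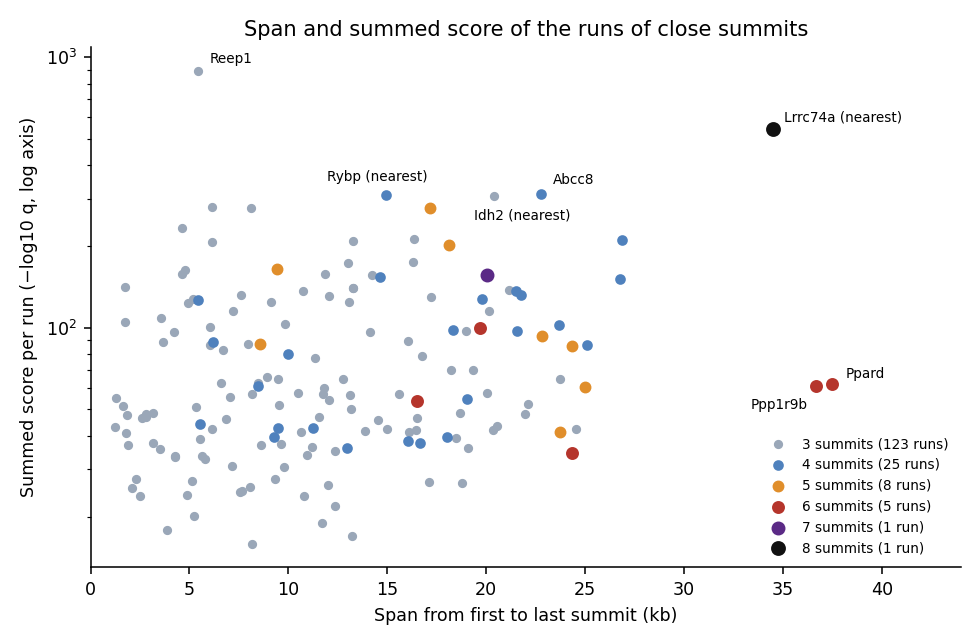
Each point is a run, with its span in kb against its summed score (−log10 q, log axis), coloured by its number of summits; labels give the first overlapped or the nearest protein-coding gene. The highest sum, 890 at Reep1, belongs to a run of only 3 summits, and the widest runs, at Ppard and Ppp1r9b, have sums of 62.3 and 61.1.

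Relative to protein-coding genes, a smaller share of run summits than of the others lay at gene boundaries and a larger share outside genes. No test was made, since summits of 1 run share their place. Within 1 kb of either end of a protein-coding gene lay 112 of 554 run summits, 20.2%, against 24.6% of paired and 31.1% of single summits. Another 39.7% lay deeper inside a gene, against 43.6% and 38.3%. Outside genes and over 1 kb away lay 40.1%, against 31.7% and 30.6%. Of the run summits outside protein-coding genes at any distance, 64 were inside another annotated gene, such as a lncRNA gene. These were 11.6% of run summits, against 10.2% of paired, 8.98% of single and 9.39% of all summits. Inside no annotated gene lay 39.5% of run summits, against 34.7% of paired, 37.1% of single and 36.9% of all. The difference from single summits was thus smaller when all annotated genes were counted. Distance to the nearest annotated start, coding or not, was measured on the chromosomes with promoter windows. Its median was 8.25 kb for run summits, against 10.2 kb for paired and 11.5 kb for single summits. Within 1 kb of a start lay 22.2%, against 24.6% and 31.8%, and over 10 kb away lay 44.1%, against 50.5% and 52.0%. Run summits were thus not farther from starts in general. Among the runs as a whole, 113 overlapped a protein-coding gene, 88 of them exactly 1 and 25 of them 2 or more. A further 21 overlapped only other annotated genes and 29 overlapped none, and for 19 runs the nearest protein-coding gene was over 50 kb away. In 31 of the 163 runs the highest summit lay at most 1 kb from either end of such a gene. For comparison, 20.2% of run summits of any rank and 29.2% of all placed summits lay as close. The highest summits were thus not found at gene ends more often than run summits in general.

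**Figure D3:**
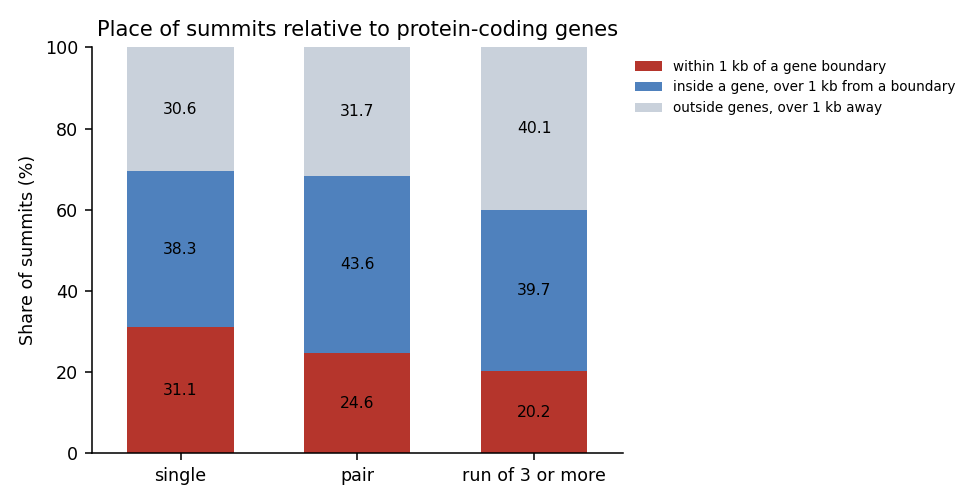
Share of single summits (n = 5556), paired summits (n = 1270) and summits in runs of 3 or more (n = 554) by place relative to protein-coding genes, in percent. The boundary share goes from 31.1% to 24.6% to 20.2%, and the share outside genes is 40.1% in runs.

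The run with the most summits lay outside protein-coding genes on chromosome 12, although with a joining distance of 15 kb a run in Wdr25 had more, 11. The run near Lrrc74a had 8 summits over 34.5 kb (chr12:86790594-86825067), overlapped the lncRNA genes Gm32806 and Gm51955, and lay 21569 bases from Lrrc74a, the nearest protein-coding gene. In genome order its scores were 9.79, 371, 21.7, 47.0, 6.79, 18.8, 22.7 and 46.8. The second summit thus carried 68.1% of the sum of 544, which was the second highest of all runs. The next, with 7 summits over 20.04 kb (chr8:126824763-126844801), overlapped the lncRNA gene Gm31718 and had scores of 35.5, 4.71, 57.9, 8.93, 7.04, 11.7 and 31.3. Its score was spread more evenly, with 36.8% in the highest summit.

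Of the 5 runs of 6 summits, 4 overlapped protein-coding genes. The widest of all 163 runs, 37.5 kb (chr17:28253378-28290840), was entirely inside Ppard, which encodes a lipid-sensing nuclear receptor. Its scores were 24.7, 7.09, 16.0, 5.54, 2.48 and 6.54, and with a joining distance of 10 kb its highest summit stood alone. The run at Ppp1r9b and Samd14 (chr11:94979202-95015887), where Ppp1r9b encodes the scaffold spinophilin, spanned 36.7 kb with scores of 18.1, 4.03, 19.4, 6.75, 7.05 and 5.73. Another was entirely inside the WD-repeat gene Wdr25 (chr12:108902012-108926367), with scores of 2.72, 6.18, 10.9, 3.52, 4.47 and 6.71. At a score minimum of 5, its highest summit stood in a pair only. These 3 were wide, and their sums of 62.3, 61.1 and 34.5 stood against a median of 57.2 over all runs. A run at Lncpint and 2210408F21Rik, both lncRNA genes (chr6:31213308-31232967), scored 3.40, 3.46, 11.3, 16.4, 55.9 and 9.45, with the 16.4 in the Lncpint promoter window. Of the 8 runs of 5 summits, 1 began 9428 bases from Hdac11, a histone deacetylase gene, and ended in its promoter window (chr6:91147242-91156658). Its scores were 114, 15.7, 5.57, 13.4 and 16.6, so that the summit farthest from the gene was the highest.

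The last run of 6 summits lay over Mir375, which encodes miR-375, a microRNA abundant in islet cells (chr1:74885898-74902390). It began 425 bases outside the body of Fev, upstream of its start. Fev is an ETS transcription factor gene of the alpha cell list. The run crossed Cryba2, a crystallin gene, and ended inside Cfap65. Its scores were 10.5, 5.82, 2.995, 10.2, 19.7 and 4.64. The highest summit, at 74901210, lay 489 bases before the 5′ side of the hairpin (chr1:74900658-74900721, minus strand). The hairpin and its 5p arm, with the seed in capitals, are printed because this summit is the nearest to a miRNA gene among the runs. The 3p arm of miR-375 had no entry among the miRNA sequences used, so its seed is not shown. Which arm is the abundant one was not examined.
Mir375 hairpin: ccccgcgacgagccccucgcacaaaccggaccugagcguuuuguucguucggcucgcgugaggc
mmu-miR-375-5p: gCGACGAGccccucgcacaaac
Runs also covered Mir191 and Mir425 on chromosome 9, Mir6939 on chromosome 12 and Mir6990 on chromosome 19, with the nearest summit 784, 1242, 5865 and 3760 bases from the hairpin.

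**Figure D4:**
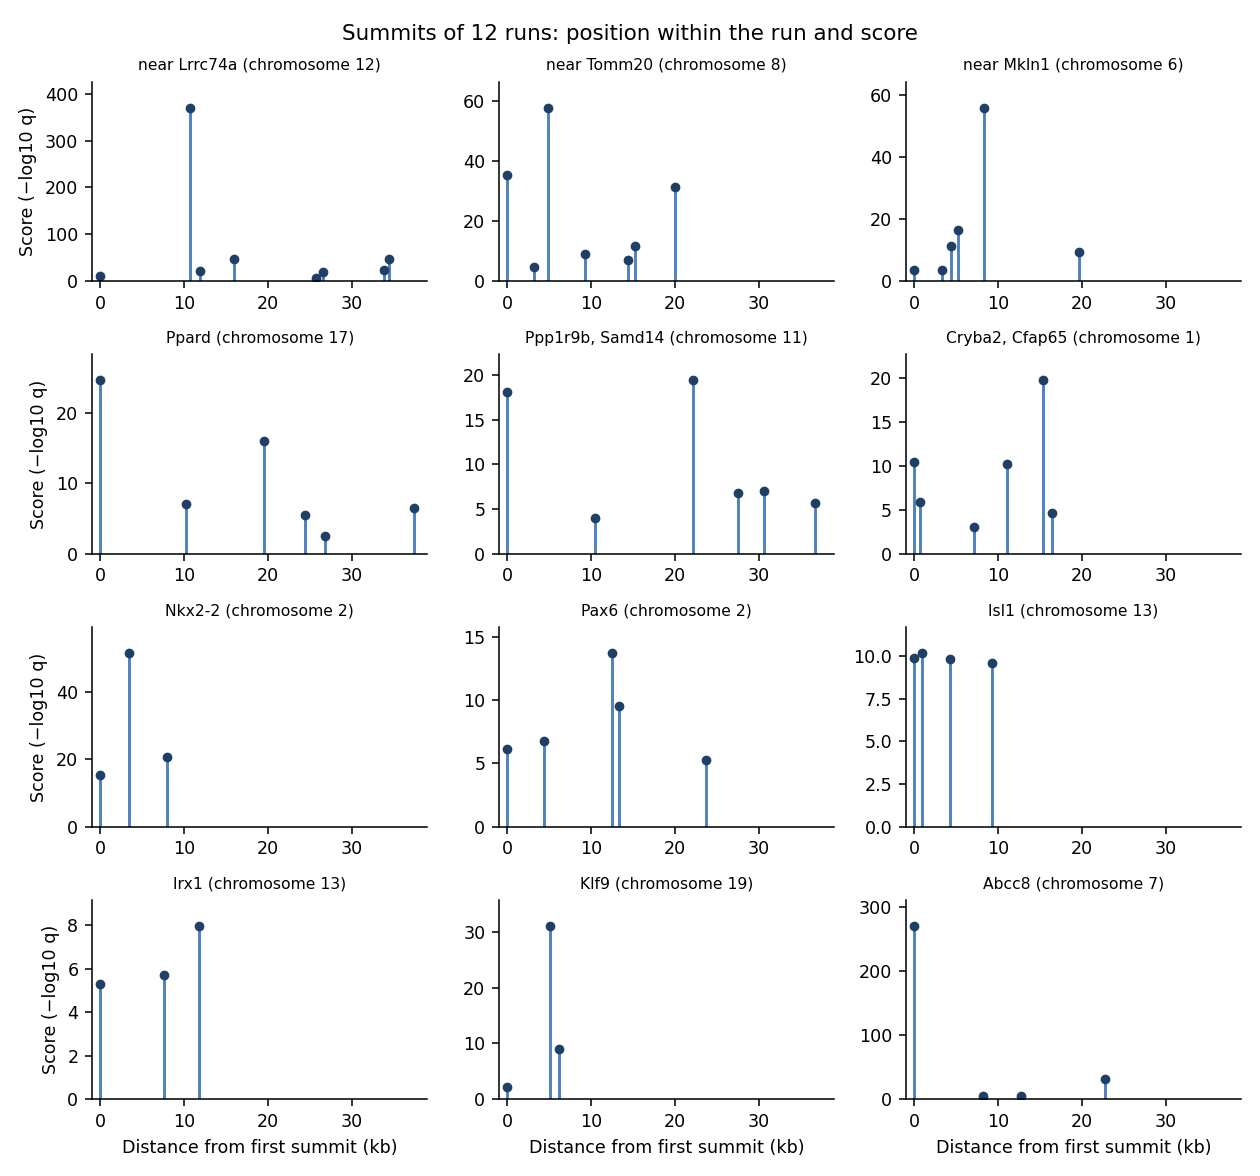
Scores (−log10 q, from 0) against the distance from the first summit in kb; the upper 6 panels are the runs with most summits, with 8, 7, 6, 6, 6 and 6, and the lower 6 are runs over Nkx2-2, Pax6, Isl1, Irx1, Klf9 and Abcc8. Each line is 1 summit, and panels have their own score axis. A single summit towers at Abcc8 (271) and in the run near Lrrc74a (371), while the 4 summits at Isl1 are nearly level.

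By summed score, single strong summits set the order. The highest sum, 890, came from a run of 3 inside Reep1, a gene for a protein that shapes the endoplasmic reticulum (chr6:71723141-71728550). Its scores were 11.5, 9.06 and 870, and the last of them ranked 9 among all placed summits. Abcc8, which encodes the sulfonylurea receptor subunit of the ATP-sensitive potassium channel, had 4 summits within its body (chr7:46123272-46146032) with scores of 271, 5.67, 5.21 and 31.8. The run of 4 that overlapped no annotated gene, 216894 bases from Rybp, the nearest protein-coding one (chr6:99996750-100011671), had 13.7, 6.26, 31.3 and 258. In each of these the highest summit held over 80% of the sum.

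Among the other 6 of the 10 highest sums, 3 runs had more than 1 summit above 50. Btg2, an antiproliferative gene induced by p53, had 5 summits (chr1:134060960-134078107) with scores of 31.9, 7.51, 59.5, 42.6 and 136, the last of them inside the gene. At Ddit4, a stress-induced inhibitor of mTORC1, the scores were 183, 92.9 and 2.10 (chr10:59943884-59951970). The lowest of these fell into the Ddit4 promoter window, while the strong ones lay 7886 and 2228 bases downstream of the start. The run 12138 bases from Avpr1b, a vasopressin receptor gene, scored 30.4, 74.0 and 130 (chr1:131582357-131586976). At Zc3h10 and Rpl41 the scores were 248, 13.2 and 17.98 (chr10:128543125-128549237), and the 2 lower summits were the ones in promoter windows. The remaining 2 lay outside protein-coding genes. One began 4667 bases from Idh2, a mitochondrial dehydrogenase gene, and scored 6.53, 7.98 and 292 (chr7:80123275-80143659). The other crossed the lncRNA gene 4930568G15Rik, ended in its promoter window and scored 9.72, 22.6 and 181 (chr1:165075735-165092060).

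After the runs at Ppard, Ppp1r9b and near Lrrc74a, the widest were at Cfap126 and at Dcdc2b to Txlna. The first spanned 26.85 kb and 5 tRNA genes (chr1:171096293-171123142), with 148, 4.64, 4.04 and 54.4. The second spanned 26.8 kb and 4 protein-coding genes (chr4:129614301-129641054), with 80.2 in the Dcdc2b promoter window, then 6.36, 56.5 and 8.73. Both had strong summits at or towards opposite ends, and both were among the 6 named runs in which joining at 10 kb left fewer than 3 summits together with the highest.

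The densest runs took in 3 summits each within 2 kb. The shortest, 1.25 kb (chr8:10977888-10979137), lay 5544 bases from Irs2, an insulin receptor substrate gene, and scored 36.5, 3.54 and 2.99. At Gapdh, a glycolytic enzyme gene (chr6:125165679-125167415), the scores rose outward from the gene, with 9.04 inside it and 27.8 and 68.0 before its start. Runs inside Vegfc, a lymphatic growth factor gene (chr8:54120435-54122052), and in the lncRNA gene Gm39609 (chr11:22437601-22438907) reached 33.4 and 28.6 at most. The other, 4587 bases from Plekha1 (chr7:130854245-130855964), reached 104.

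Genes for islet transcription factors were covered by runs in 3 of 21 cases, Nkx2-2, Pax6 and Isl1. A run overlapped 156 of 21883 protein-coding genes, 0.713% of all. The lists were chosen with earlier results of these data known, so the contrast is no independent support. They were not matched to this background for gene length or for summit number, and 13.4% of all protein-coding genes had a summit in the body. At Nkx2-2 (gene ID 18088), the gene of the factor itself, 3 summits lay within the gene body (chr2:147187353-147195290) with scores of 15.4, 51.4 and 20.6. At Pax6 (gene ID 18508), which encodes a paired-box homeodomain protein of islet cells, 5 summits scored 6.15, 6.79, 13.7, 9.53 and 5.24 (chr2:105662178-105685929). They began 6718 bases before an annotated start and ended inside the gene. At Isl1 (gene ID 16392), a LIM homeodomain gene, the 4 summits were nearly equal, with 9.88, 10.2, 9.81 and 9.61 (chr13:116293387-116302642), and 3 of them lay beyond the gene end. Of these 3 genes, Nkx2-2 alone kept a run of at least 3 summits at a score minimum of 10.

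Of the 15 alpha cell genes, runs covered Irx1, an Iroquois homeobox gene, and Etv1, an ETS transcription factor gene. Irx1 had scores of 5.32, 5.69 and 7.96 (chr13:71952013-71963726), and Etv1 had 11.8, 7.95 and 4.26 around its start (chr12:38778713-38781236). Both sums, 18.97 and 24.0, were among the 8 lowest of all runs. Within 10 kb of a run, where 1.10% of all protein-coding genes lay, Fev was the third alpha cell gene. None of the 12 beta cell genes was covered or within 10 kb. The same held for the 21 phosphodiesterase, 25 Notch pathway, 11 SLC38 transporter and 39 HOX genes. It also held for the 16 liver and muscle genes that served as other cell types. At a share of 1.10% of all genes, most lists of this size would have none, so these zeros do not set cell types apart. Abcc8, described above, was in none of the lists.

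In the KLF and SP family, 1 of 26 genes was covered, Klf9, where a summit of 31.0 in the promoter window stood between 2.25 upstream and 9.08 inside the gene (chr19:23136021-23142145). Cacna1c, the gene of an L-type calcium channel, was covered as 1 of 10 voltage-gated calcium channel alpha-1 genes, with 9.61, 49.9 and 29.0 inside the gene (chr6:119079103-119082782). Among 36 potassium channel genes, Kcnh2 had 22.3, 13.2 and 7.03 (chr5:24337426-24352394). The axon guidance list had 1 of 40, Ntn4, a netrin gene, with 8.37, 20.7 and 17.6 (chr10:93730093-93741652). At Kcnh2 2 of the 3 summits lay within the gene body, and at Ntn4 all 3 did.

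At Tle6, a gene of the Groucho corepressor family, the scores were 14.7, 10.7 and 5.26 (chr10:81596772-81606561), and Tle2 lay within 10 kb of a run without being covered. Of 76 cytosolic ribosomal protein genes 2 were covered, Rpl41, described above, and Rpl18, which shares a run of 5 summits with the clock-controlled transcription factor gene Dbp and with Sphk2, Fam83e and Spaca4 (chr7:45704990-45727786). Its scores were 14.5, 7.36, 39.7, 17.1 and 15.02, and the highest lay in Dbp. Over all 15 lists 14 of 407 genes were covered, 3.44%, in 14 runs. At a score minimum of 10, 4 of these runs, among them those over Nkx2-2, Rpl18 and Rpl41, still had 3 or more summits. Of all 38 named runs, 15 did. Most other runs also fell away at this minimum, as the number left of all 163 runs, given in the last section, shows.

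The genes with the most run summits in the body were Wdr25 with 10 of its 11, in 2 runs 27.5 kb apart, and Ppard with 6 of 6. A further 6 genes had 4 each. Abcc8, Ulk1, an autophagy kinase gene, and Ncoa3, a nuclear receptor coactivator gene, had all of their 4 in a run. Shb had 4 of 6, Usp29, a gene of the imprinted Peg3 domain, 4 of 6, and Tcf4, a basic helix-loop-helix factor gene, 4 of 8. The second Wdr25 run (chr12:108953872-108965101) held the highest score of that gene's run summits, 26.9, followed by 5.04, 3.36 and 7.56.

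Several runs lay within 100 kb of another, in 7 groups. The largest group was on chromosome 8 (chr8:126590265-126844801), with 4 runs, 18 summits and no summit between the runs over 254.5 kb. It began at Irf2bp2, a transcriptional cofactor gene, and ended with the run of 7 summits. The highest scores of the 4 runs were 34.7, 16.8, 86.6 and 57.9. Around Irs2, 3 runs with 11 summits lay within 100.5 kb (chr8:10912897-11013385), and the highest summit, 117, was in the run farthest from the gene.

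The following runs were named after their values were seen. The lncRNA genes Malat1 and Neat1, both highly transcribed nuclear RNAs in many cells, lie next to each other on chromosome 19 and each had a run, with highest scores of 19.8 and 37.4. At Neat1 the 5 summits scored 7.65, 10.4, 37.4, 8.83 and 23.1 (chr19:5841753-5850300), the first of them inside the gene and the others outside it. A run of 5 summits over the lncRNA gene 9030622O22Rik (chr2:147968756-147993090) lay 49787 bases from Foxa2, a forkhead factor gene, and scored 6.89, 10.8, 31.7, 23.5 and 12.7. Sstr3, a somatostatin receptor gene, had 5.19, 18.2 and 102 (chr15:78532714-78541815), and Irs1 had 9.68, 14.7 and 12.7 around its start (chr1:82283319-82292951). The histone run shown by sequence (chr13:23531053-23535299) scored 12.54, 10.9 and 10.2 at H4c8, H2ac10 and H3c8. A run of 3 with scores of 122, 20.7 and 20.1 (chr17:39843681-39848476) lay over Rn18s-rs5 and AY036118, annotated as an 18S ribosomal RNA-related pseudogene and a lncRNA, 102044 bases from the nearest protein-coding gene. Ribosomal RNA genes are present in many copies, and the part of copy number in these scores was not tested.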

How the data were processed

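NKX2.2 ChIP and input DNA of alphaTC6 cells were sequenced, 2 samples each. The submitters' processing notes name FastQC, Bowtie2, MACS2 and the mm10 build (GRCm38). Versions, duplicate handling and pooling of replicates are not given in the sources used here. The deposited list has 7384 summits, of which 4 on contigs were left out. Its score column was taken as the authors' −log10 q-value, as MACS2 writes it, since its lowest value of 2.03 lies just above the 2 that a q-value of 0.01 gives. Positions were counted from 1.

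Summits were joined at up to 12500 bases, and runs of at least 3 were set against a RefSeq gene table and promoter windows of GRCm38.p6. A gene was covered when its body overlapped the span from first to last summit. Windows were available for 17491 of 21883 protein-coding genes. All 407 list genes were found by symbol or synonym. Runs named are the 10 with most summits, the 10 highest sums, the 5 widest, the 5 densest and those covering a list gene. The histone, Taok2, miRNA and neighbouring-run loci, and the genes with 4 run summits, were singled out after their values were seen. Some runs that the rule names are not reported here. A sum of −log10 q-values ranks runs and is no joint significance.

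The members and lists were chosen with earlier results of these data known. No test was made, since the list has no replicate values and positions chose the members. Alternatives were the joining distance (10 and 15 kb), score minimums (5 and 10), merging within 500 bp, the gene set and the distance to genes. The joining step was tested on simulated data. Tools were pandas 2.3.3, matplotlib 3.10.9, numpy 2.4.6 and scipy 1.17.1 under Python 3.11.15.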

Additional observations from a re-analysis of the deposited data

Results flagged for a closer look

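Outside the chromosomes that were used, 4 summits lay on contigs, a signal in data that no comparison above uses. Their scores were between 3.48 and 109.8, and none lay close enough to another to join, the only 2 on the same contig being 57704 bases apart.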

How the results depend on the processing

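No paired analysis was possible because summits were deposited without separate values for the replicates, and none could be left out for the same reason. At a score minimum of 10, 56 runs with 180 summits remained by count, with a median summed score of 84.5, a median summit score of 19.3, 34 runs over a protein-coding gene, 48 genes covered and 44.4% of summits inside a gene. At a minimum of 5 the median summit score was 13.7. The median span was 8.47 kb when joining at 10 kb and 13.9 kb at 15 kb. With all annotated genes, 60.5% of run summits lay inside a gene and 26.0% within 1 kb of a boundary. Counting genes within 10 kb of a run gave 241 covered. A score minimum removes summits, and a wider distance or a larger gene set takes in more, by construction. Why the share inside a gene went from 48.9% to 44.4% at a minimum of 10 was not tested. All other values stayed within 1.5 times for counts and within the 95% interval for shares and medians. These binomial intervals count each summit or run as independent, which summits of 1 run are not. They served only as a yardstick for shifts and measure no replicate error. Merging within 500 bp could change none, since no gap within a run was under 0.521 kb. Of the 38 named runs, the highest summit still stood in a run of 3 or more in 32 at 10 kb, in 31 at a minimum of 5 and in 15 at a minimum of 10. Unknown depth means that a missing summit shows only that no peak was called.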
